A study of Mus musculus with 3 samples.

Results

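The COPII coat carries newly made protein out of the endoplasmic reticulum, and the 10 genes described here encode subunits of it in the mouse: Sar1a, Sar1b, Sec23a, Sec23b, Sec24a, Sec24b, Sec24c, Sec24d, Sec13 and Sec31a. They were taken as a family, and binding of the splicing factor RBFOX2 to their transcripts was read from 1 list of crosslink clusters. A cluster was given to a gene when it lay on the gene's strand with its midpoint inside the gene's span in GENCODE M21 on GRCm38. By that rule the family held 84 of 87021 clusters and 2023 of 2850863 counts, and the clusters lay in 10 of 10 genes. Of 21951 protein-coding genes, 41.8% held at least 1 cluster.

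The list came from eiCLIP, an individual-nucleotide crosslinking and immunoprecipitation method in which the first base of each cDNA marks the nucleotide next to the crosslink. RBFOX2 was precipitated from primary hepatocytes of C57BL6/J mice on a control diet, which had been plated overnight and irradiated with 150 mJ/cm2 of ultraviolet light. The labels give 3 libraries of 1 group, each from 3 livers and 3 pellets, whereas the study's methods describe cultures from 2 mice each. There was no knockout, no second condition and no input library in the data used here. The deposited list pools the 3 libraries, so no value below has a spread between replicates, no difference was tested, and every interval covers counting error only. The list starts at 10 counts per cluster, and it holds no expression values, so that an abundant transcript and a strongly bound one cannot be told apart. Of the hepatocyte markers, 8 of 8 genes held clusters with a summed count of 14402, against 53 for 3 of 4 Kupffer cell or leukocyte genes, 12 for 1 of 3 endothelial genes and none for stellate or bile duct genes. The index heptamers of the adaptor were found next to 0 of 32 family clusters in which they could be looked for, and next to 1.60% of 25966 such clusters on the strand of a gene.

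COPII assembly begins when the small GTPase Sar1, loaded with GTP, inserts into the membrane at an exit site. Sar1 recruits the inner coat, a dimer of Sec23, which stimulates the GTPase, and Sec24, which binds cargo and sorting receptors. The outer coat, built of Sec13 and Sec31, then polymerises into a cage that bends the membrane into a vesicle. In hepatocytes this route exports lipoproteins, albumin and clotting factors. RBFOX2 binds GCAUG in RNA, written GCATG in DNA letters, and the position of its sites beside an alternative exon is known to matter for whether the exon is kept or skipped.

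Cassette exons were internal exons that at least 1 spanning protein-coding transcript uses and at least 1 skips. Exons overlapped by another coding-transcript exon with other ends, such as Sec31a exon 22, were left out. Of the 13 cassette exons in the family, 6 had a cluster inside them or within 500 nt. They lay in Sec31a, Sec24b and Sec24c, and their sequences are given because the clusters are described by their distance from them. All 6 have lengths divisible by 3 and lie within the coding sequence. GCATG is in capitals and occurred in 1 of the 6, where it forms the first 5 bases of the Sec24b exon. Each is written 5′ to 3′ on the strand of the gene, from the annotated transcripts on GRCm38.
Sec31a exon 23 (chr5:100369596-100369634, minus strand, 39 nt): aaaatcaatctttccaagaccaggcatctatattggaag
Sec31a exon 13 (chr5:100389068-100389106, minus strand, 39 nt): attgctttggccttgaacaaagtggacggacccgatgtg
Sec31a exon 14 (chr5:100388534-100388611, minus strand, 78 nt): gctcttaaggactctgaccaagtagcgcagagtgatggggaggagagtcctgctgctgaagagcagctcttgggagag
Sec31a 93-nt exon (chr5:100375961-100376053, minus strand): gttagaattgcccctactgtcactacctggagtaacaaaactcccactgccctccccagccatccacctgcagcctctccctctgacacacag
Sec24b 105-nt exon (chr3:130020538-130020642, minus strand): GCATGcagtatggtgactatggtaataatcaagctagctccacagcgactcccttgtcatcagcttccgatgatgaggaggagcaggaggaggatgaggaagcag
Sec24c 69-nt exon (chr14:20685212-20685280, plus strand): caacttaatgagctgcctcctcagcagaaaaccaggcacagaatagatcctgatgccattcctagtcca

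Counts were spread very unevenly over the coat subunits. Sec31a held 738 counts (exact Poisson 95% interval 686 to 793) in 28 clusters, Sec24a 398 (360 to 439) in 18 clusters and Sec24c 308 (275 to 344) in 15 clusters. These 3 genes together held 71.4% of the family's counts and 72.6% of its clusters. Sec24b followed with 209 counts (182 to 239) in 7 clusters. The remaining genes ranged from 36 to 96 counts in 1 to 4 clusters each. From Sec31a down to Sec23a the intervals of neighbours in this order did not overlap, whereas from Sec23a (96 counts) through Sec24d (74), Sar1a (70), Sar1b (50), Sec13 (44) and Sec23b (36) each overlapped the next. Among 10738 genes with a cluster, Sec31a ranked 497 by summed count and Sec23b ranked 6408.

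Long genes offer more sequence, and the order changed when counts were set against the span of the gene. Sec24c had 150 counts per 10 kb (134 to 168) and Sec31a had 135 (126 to 145), with overlapping intervals. Sec24a had 55.8 and Sar1a 53.9 counts per 10 kb. Sec24d, the longest member at 98.2 kb, was lowest with 7.54 (5.92 to 9.46). The 4 Sec24 paralogs thus differed in density from 7.54 to 150 counts per 10 kb, with Sec24b at 26.5 between Sec24d and Sec24a.

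**Figure D1:**
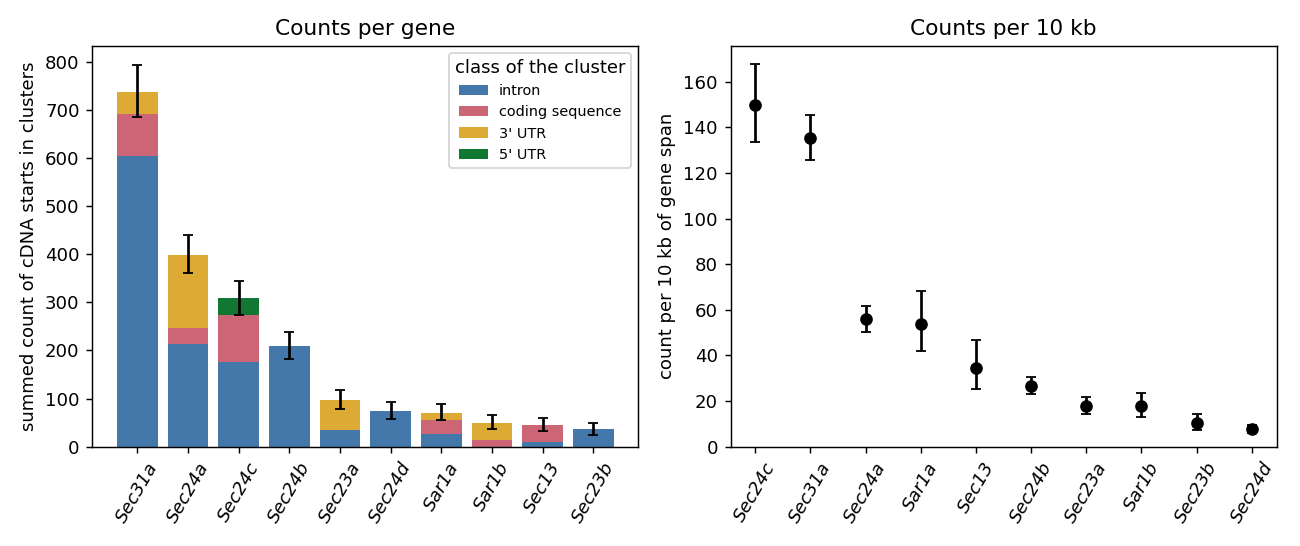
Left, summed count of cDNA starts in the clusters of each COPII gene, stacked by the annotated class of the cluster; right, count per 10 kb of gene span; error bars are exact Poisson 95% intervals of the summed count. Sec31a leads by count with 738, and Sec24c with 150 and Sec31a with 135 counts per 10 kb stand above the other 8 genes.

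Single clusters of the family had 10 to 51 counts with a median of 22 (quartiles 14.8 and 33), beside a median of 17 (13 and 25) over all 87021 clusters. The median width was 37.5 nt, beside 18 nt over all clusters. Of the 84 clusters, 53 (63.1%) reached the overall median of 17 counts and 12 (14.3%) reached 39 counts, which 10.2% of all clusters did. Over all clusters 51.7% reached the median. No COPII cluster was above 51 counts.

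By place in the transcript, 57 of 84 clusters were intronic (67.9%, Wilson 95% interval 57.3 to 76.9%), against 68.1% of all clusters in genes. A further 15 lay in coding sequence (17.9%, against 14.1% of all clusters in genes). There were 11 in 3′UTRs (13.1%, against 13.3%) and 1 in a 5′UTR (1.19%, against 1.45%). The family was thus near the general share in each class. The intronic share differed between subunits, from 7 of 7 clusters in Sec24b and 3 of 3 in Sec24d to 0 of 2 in Sar1b. Of the 57 intronic clusters, 14 lay within 300 nt downstream of an exon of a coding transcript, 8 within 300 nt upstream and 5 overlapped an exon edge. The other 30 lay farther away, 2 of them beyond 5 kb, and the median distance to the nearest exon was 342 nt. Of the 14 downstream clusters, 6 were in Sec24c. Most of these 6 lay in introns of 1403 nt or more, although the median Sec24c intron is 235 nt long. The matching shares over all intronic clusters were not computed, so these places cannot be called particular to the family.

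**Figure D2:**
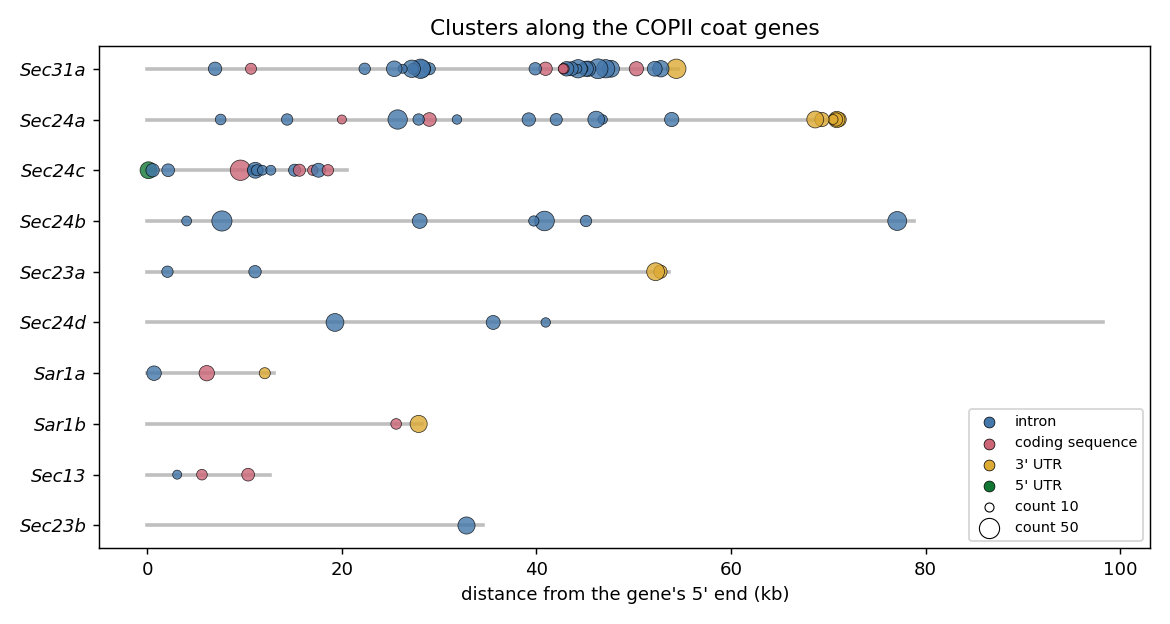
Each circle is 1 cluster at its distance in kb from the 5′ end of its gene (grey line, the annotated span), with the area proportional to its count and the colour giving its class. Most of the 28 Sec31a clusters gather in 2 stretches of the gene and at its end, and the others lie scattered. In Sec24a, 6 of the 18 clusters lie in the 3′UTR, and Sec24d has 3 clusters and Sec23b 1 over their whole spans.

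Sec31a encodes the large subunit of the outer cage, which also stimulates the GTPase through Sec23. Its gene (ENSMUSG00000035325.16, chr5:100361649-100416234, minus strand) held 22 intronic clusters, 5 in coding sequence and 1 in the 3′UTR, and introns took 81.8% of its count. Exon 23 of Sec31a-201, the 39-nt exon that the study followed, is used by 3 and skipped by 3 spanning coding transcripts. It supplies 13 of the 1230 codons of Sec31a-201, starting at residue 987. The highest cluster of the whole gene, with 48 counts, lay 218 nt upstream of this exon (chr5:100369853-100369943). On the other side, 394 nt behind the exon, was a cluster of 41 counts (chr5:100369031-100369201). Of all clusters in the list, 93.2% were lower than the upstream one and 90.8% lower than the downstream one. No cluster touched the exon itself.

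The intron between exons 22 and 23 held the most clusters of any Sec31a-201 intron, 8 clusters with 218 counts in 3745 nt. The next intron, between exons 23 and 24, held 2 clusters with 76 counts in 1243 nt. Together these 2 introns made up 9.14% of the span of Sec31a and took 39.8% of its count. Exon 22 itself has alternative ends and is up to 336 nt long, so it is not among the cassette exons although 1 transcript skips it. It held 2 small clusters of 14 and 12 counts, with a cluster of 26 counts in the intron behind it at 246 nt.

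A second group of Sec31a clusters lay around the neighbouring exons 13 and 14, which are also cassette exons. Exon 13, again 39 nt and 13 codons, is used by 2 and skipped by 2 transcripts. A cluster of 37 counts (chr5:100389006-100389071) overlapped its 3′ end and ran into the intron behind it. Exon 14, of 78 nt and 26 codons, is used by 1 and skipped by 3. The cluster nearest to it, of 15 counts, lay 281 nt upstream, which is also 173 nt downstream of exon 13. Behind exon 14, at 390 nt, was a cluster of 46 counts. The 3 introns from exon 12 to exon 15 held 6 clusters with 163 counts. By contrast, the 5 introns from exon 15 to exon 20, together 6500 nt, held 0 clusters, as did every intron from exon 2 to exon 8.

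The remaining Sec31a cassette exon, of 93 nt, is exon 12 of Sec31a-211 and is skipped by 4 transcripts. Its nearest cluster, of 19 counts, lay 248 nt upstream. Thus each of the 4 Sec31a cassette exons had a cluster in the 300 nt on either side, against 4 of its 18 constitutive exons (22.2%). With clusters inside the exon counted as well, it was 4 of 4 against 6 of 18 (33.3%).

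**Figure D3:**
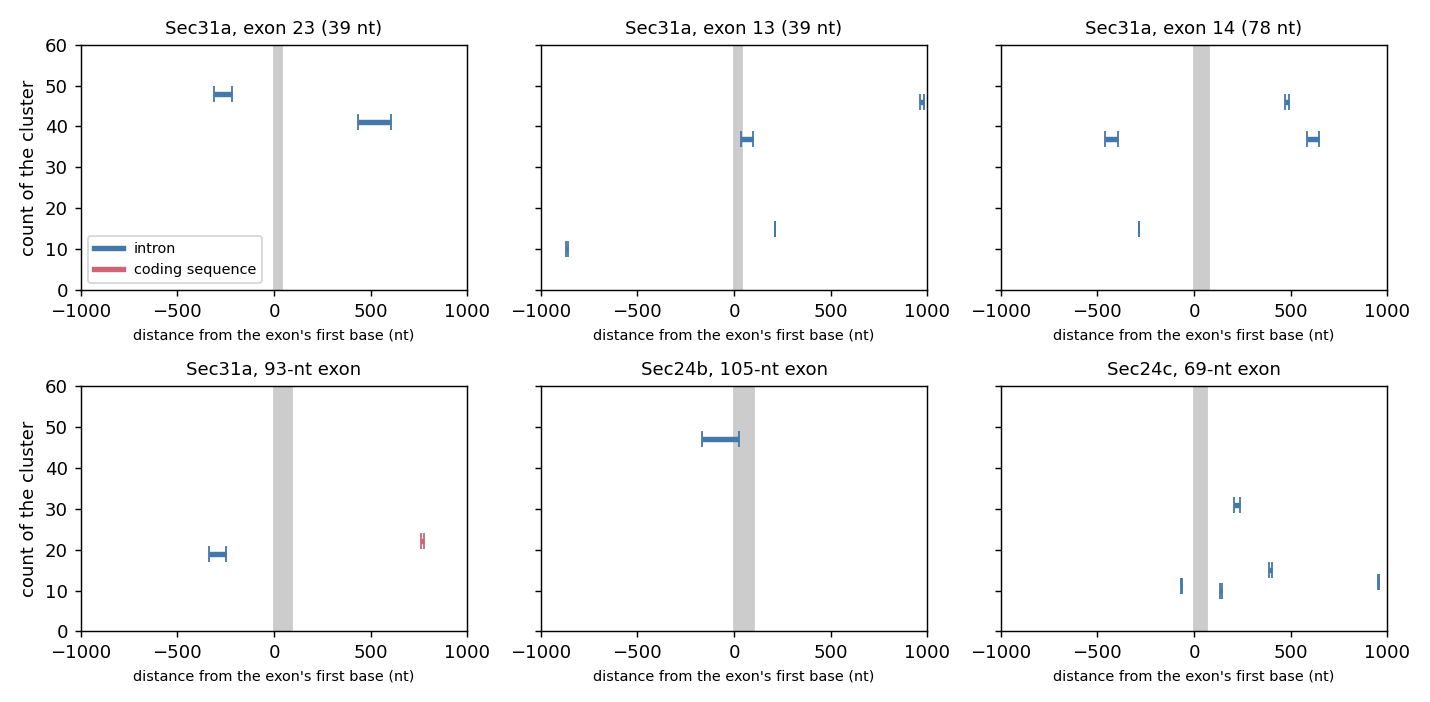
Clusters within 1000 nt of the 6 COPII cassette exons that had a cluster inside them or within 500 nt; the horizontal axis is the distance in nt from the first base of the exon (grey band, the exon; negative values upstream), the vertical axis the count of the cluster, and each bar spans 1 cluster. Exon 23 of Sec31a lies between clusters of 48 and 41 counts, and the cluster of 47 counts at the Sec24b exon runs across its first base.

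Sec13, the small partner of Sec31 that also serves in the nuclear pore, was sparsely covered. Its gene (ENSMUSG00000030298.10, chr6:113728062-113740743, minus strand) held 3 clusters of 20, 14 and 10 counts. The clusters of 20 and 14 counts lay in coding exons, and the one of 10 lay 299 nt downstream of an exon. Sec13 has 1 coding transcript in the annotation, so its exons could not be sorted into cassette and constitutive.

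Among the Sec24 cargo adaptors, Sec24a (chr11:51692264-51763634, minus strand) differed from the others by its 3′UTR. There, 6 clusters with 152 counts made up 38.2% of its count, while no cluster of Sec24b, Sec24c or Sec24d lay in a 3′UTR. The last exon of Sec24a, which holds these 6 clusters, is 2978 nt long, and 3′UTR counts were not set against 3′UTR length. Sec24a had a further 10 intronic clusters with 213 counts and 2 in coding sequence with 33 counts. The highest Sec24a cluster, of 46 counts, lay inside Gm25291, a snoRNA gene on the same strand within an intron, and the reads of host and snoRNA cannot be told apart. Leaving that cluster out left 1977 counts for the family. The snoRNA is shown with the cluster in capitals at positions 28 to 47, and it holds no GCATG.
Gm25291 (chr11:51737779-51737922, minus strand): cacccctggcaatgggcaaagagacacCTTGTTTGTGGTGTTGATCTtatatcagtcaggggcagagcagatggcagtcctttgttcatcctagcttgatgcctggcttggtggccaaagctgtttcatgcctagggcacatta

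Sec24b (chr3:129982759-130061553, minus strand) had its 7 clusters in introns. The highest, of 50 counts, lay deep in the first intron, 6616 nt from the first exon. A cluster of 47 counts, 190 nt wide (chr3:130020617-130020806), ran from the intron across the 3′ splice site into the 105-nt cassette exon. The GCATG that opens this exon lay inside the cluster, 164 nt from its 5′ end. The exon is used by Sec24b-201 and skipped by 2 coding transcripts. The other Sec24b cassette exon, of 126 nt, had no cluster within 500 nt.

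Sec24c (chr14:20674308-20694852, plus strand) is a compact gene, in which 13 of the 22 introns of Sec24c-201 are shorter than 300 nt. Of its 10 intronic clusters, 6 lay within 300 nt downstream of an exon, most of them in introns of 1403 nt or more. A cluster reached the 300 nt beside 10 of its 17 constitutive exons (58.8%), but where introns are this short these flanks run into the neighbouring exon and 1 cluster can count for several exons. Its highest cluster, of 51 counts, was also the highest of the family and ran across the start of a 137-nt coding exon (chr14:20683845-20683967). The 69-nt cassette exon, skipped by 1 transcript, was flanked closely on both sides, by 11 counts at 59 nt upstream and 10 counts at 65 nt downstream. Both are at or near the minimum of the list: 8.73% of all clusters were lower than the upstream one and 0% lower than the downstream one. In all, 4 clusters with 67 counts lay within 500 nt of it. The 129-nt cassette exon of Sec24c had no cluster within 500 nt. An antisense gene, 6230400D17Rik, lies opposite 5 of the 15 Sec24c clusters, none of them near the 69-nt exon. A cluster of 35 counts lay in the 5′UTR, the only one of the family there.

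Sec24d (chr3:123267455-123365641, plus strand) held 3 intronic clusters of 39, 24 and 11 counts, the nearest of them 2438 nt from an exon. The Sec23 paralogs were also sparse. Sec23a (chr12:58958383-59012017, minus strand) had 39 and 22 counts in 2 clusters of its 3′UTR, opposite the gene Gm17529, and 19 and 16 counts in 2 introns. Sec23b (chr2:144556229-144590749, plus strand) had a single cluster of 36 counts, in its last intron 1166 nt upstream of the last exon. Each has 1 cassette exon, and neither had a cluster within 500 nt.

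The Sar1 GTPases took 120 counts together, 5.93% of the family's, against 55.4% for the 6 inner coat genes and 38.7% for the 2 outer coat genes. Sar1a (chr10:61680299-61693297, plus strand) had clusters of 29 counts in a coding exon, 26 counts 102 nt downstream of an exon and 15 counts in the 3′UTR. Its 3 cassette exons, each used by 1 transcript, had no cluster within 500 nt. Sar1b (chr11:51763687-51791925, plus strand), whose loss in people blocks the secretion of chylomicrons, had 36 counts in a 3′UTR cluster and 14 in a coding exon. Sar1b starts next to Sec24a on the opposite strand, and no cluster of either lay at their shared start.

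Over the family, 6 of 13 cassette exons (46.2%, Wilson 95% interval 23.2 to 70.9%) had a cluster in the 300 nt on either side. Across all genes the share was 10.9% of 12245 cassette exons, and in genes with any cluster 16.9%. By side, 5 of the 13 had one upstream and 2 downstream. Constitutive exons were those used by each of at least 2 spanning transcripts, again without exons overlapped by one with other ends. Of these, 18 of 92 (19.6%, 12.8 to 28.8%) had an adjacent cluster, against 8.54% of 84493 in all genes and 13.4% in genes with a cluster. Sec31a decided the cassette share, which was 22.2% (2 of 9) without it, while the constitutive share was 18.9% without it. The exons of 1 gene share its clusters and its transcript level, so that they are not independent.

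**Figure D4:**
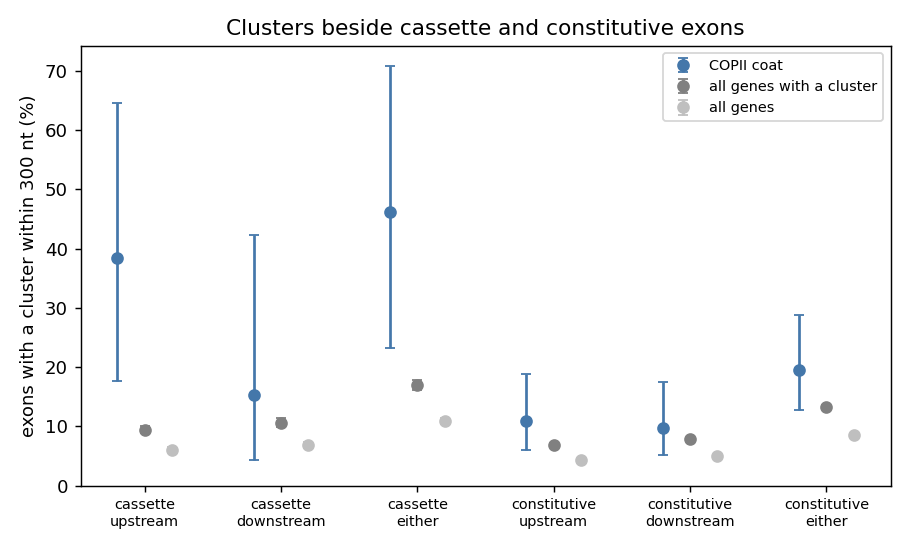
Percent of cassette and constitutive exons with a cluster in the 300 nt upstream, downstream or on either side, for the COPII genes (blue), all genes with a cluster (dark grey) and all genes (light grey); bars are Wilson 95% intervals. For COPII cassette exons the share on either side is 46.2%, with an interval from 23.2 to 70.9%.

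GCATG was searched on the transcript strand in each cluster with 50 nt on both sides, where annotated exons supplied the whole window. Of 19 such COPII windows, 4 held it (21.1%, Wilson 95% interval 8.51 to 43.3%), beside 20.1% of 19587 windows over all clusters. The windows cover mainly exons, and the clusters beside Sec31a exon 23 lie in intron sequence that was not searched. The 4 windows fell in coding sequence of Sec31a, at a site shared by 2 overlapping windows in the 3′UTR of Sec24a, and in an intron of Sec24c that some transcripts retain. The Sec31a window lies in exon 22, just before the introns around exon 23, and its motif begins 7 nt before the 5′ end of the cluster of 12 counts. In Sec24a the site begins 44 nt before the 5′ end of one cluster (33 counts) and 34 nt after that of the other (22 counts). In Sec24c it begins 24 nt after the 5′ end of a cluster of 24 counts and is part of TGCATG. A further site, in a Sec24b window that was only partly covered, began 21 nt past the 3′ end of a cluster of 44 counts. The windows or sites are shown with GCATG in capitals.
Sec31a exon 22 window (chr5:100373421-100373529, minus strand): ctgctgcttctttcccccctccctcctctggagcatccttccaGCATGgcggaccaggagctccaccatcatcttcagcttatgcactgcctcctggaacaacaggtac
Sec24a 3′UTR site (chr11:51692803-51692831, minus strand): atataaatctgaGCATGcagttctaccat
Sec24b intron site (chr3:129984376-129984404, minus strand): gtgtatgtacgtGCATGcttgcaggatta
Sec24c intron window (chr14:20691863-20691976, plus strand): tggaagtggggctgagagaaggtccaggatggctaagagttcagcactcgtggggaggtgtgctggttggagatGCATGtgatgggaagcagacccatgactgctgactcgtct

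The genes that work with the coat were read in the same way. Of the exit site genes and regulators, 11 of 11 held clusters, with 2082 counts and a median of 140 per gene. This list includes Sec31b, the paralog of Sec31a, with 113 counts in 4 clusters, which was not among the family's 10 genes. The highest were Sec16a, the scaffold of the exit site, with 532 counts, Mia2, which helps to load large cargo, with 493, and Klhl12, an adaptor of the ligase that ubiquitylates Sec31, with 231. The ligase's scaffold Cul3 had 230. Of the cargo receptors and cargo, 13 of 13 held clusters, led by Ergic1 with 1079 counts, the clotting factor receptor Lman1 with 429 and the lipoprotein receptor Surf4 with 221. Of the tethers and SNAREs, 8 of 8 held clusters, led by the GTPases Rab1a (391) and Rab1b (148) and the tether Uso1 (108). The median COPII gene had 85 counts, below the median of the exit site genes (140), the cargo genes (104) and, narrowly, the tethers and SNAREs (86.5). The median protein-coding gene with a cluster had 63.

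Beside the other vesicle coats, the order depended on the measure. COPII had 2023 counts in all, of which Sec31a gave 738, and a median of 85 per gene and 30.6 per 10 kb. The COPI coat, which returns proteins from the Golgi, had fewer counts in all but higher medians, 102 per gene and 36.4 per 10 kb. It held 1153 counts in 9 of 10 genes, led by Copa (463), Arf1 (146) and Copb1 (133). The clathrin coat was highest on each of these measures, with medians of 158 per gene and 49.5 per 10 kb. It had 4728 counts in 12 of 12 genes, of which Ap2s1, the small subunit of the endocytic adaptor, held 2492. Cltc, the heavy chain, had 659 and Ap2a2 had 419. The median count of single clusters was 22 in COPII, 16 in COPI and 17 in clathrin genes. The intronic share was 67.9%, 61.8% and 70.3%, with overlapping Wilson intervals.

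**Figure D5:**
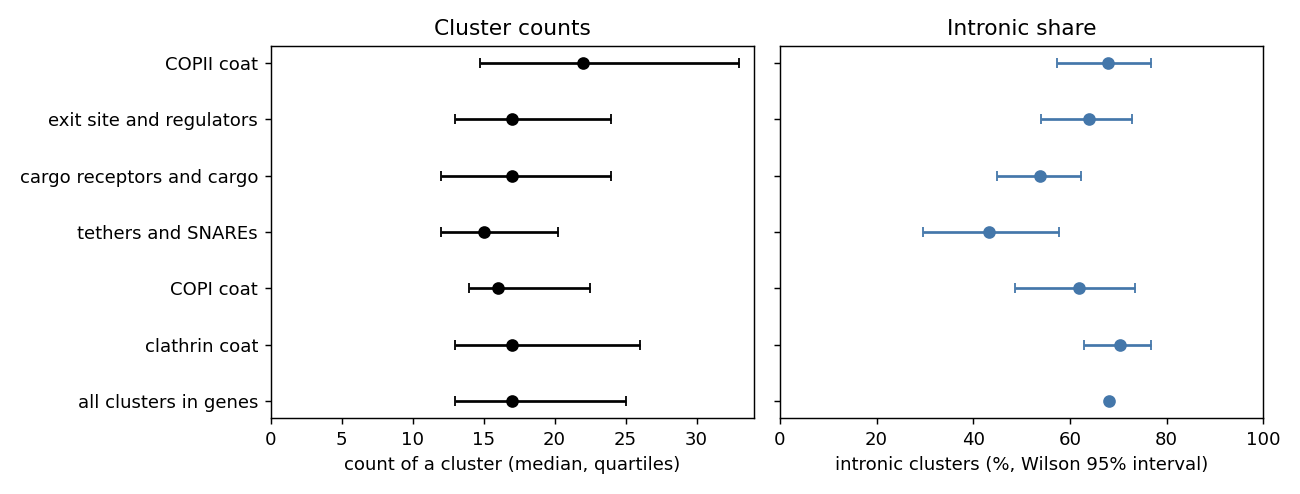
Left, median count of single clusters in each gene list with the quartiles as bars; right, percent of clusters in introns with Wilson 95% intervals. COPII clusters have a median of 22 counts beside 15 to 17 in the other lists drawn (hepatocyte markers, not drawn, have 21), and an intronic share of 67.9% beside 68.1% over all clusters in genes.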

How the data were processed

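Per the labels and the study's methods, the authors demultiplexed reads with CASAVA 1.8.4, trimmed adaptors with cutadapt, kept reads of at least 18 nt, mapped unique reads to GRCm38/mm10 with STAR 2.4.2a, removed PCR duplicates by position and random barcode, and called clusters with Paraclu on the 3 libraries pooled. The deposited values are counts of cDNA starts per cluster; that unit was read from the values, whole numbers from 10 upwards. Pooling hides the spread between libraries, and the minimum of 10 hides weak sites.

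Clusters were placed on GENCODE M21 (the study names a neighbouring release) with Python 3.11.15, numpy 2.4.6, pandas 2.3.3 and scipy 1.17.1. A cluster counted for every gene whose span held its midpoint on the same strand. Where transcripts disagreed on a class, coding sequence came before UTRs (3′ before 5′), then exons of non-coding transcripts, then introns; sequence that only a retained-intron transcript keeps was called intronic. Sequence came from 141767 annotated transcripts placed on GRCm38, not from RefSeq. Distances count the nucleotides between exon and cluster. Wilson and exact Poisson 95% intervals were used with no test. The steps were tested on simulated data. The text names all members, the 3 highest genes of every other list, Sec31b as the paralog of a member, and each cassette exon with a cluster within 500 nt. Klhl12 and Cul3 differ by 1 count, so that Cul3 was added after its value was seen. Members and lists were chosen with earlier results of these data known.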

Additional observations from a re-analysis of the deposited data

Results flagged for a closer look

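Clusters on the opposite strand of a COPII gene enter no comparison above. There were 3, named here because they lie outside the main measurement. The list starts at 10 counts and has no control sample, so no background level was available for them. A cluster of 13 counts lay opposite Sec13 (chr6:113728647-113728734, plus strand) and one of 12 counts opposite Sec24a (chr11:51701050-51701053, plus strand), both outside annotated genes of that strand. The third, of 11 counts, lay opposite Sec24c (chr14:20688324-20688363, minus strand) inside the antisense gene 6230400D17Rik. Together they held 36 counts, beside 2023 on the strand of the genes.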

How the results depend on the processing

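Of 43 alternative values, 30 stayed close to the main one, meaning within 1.5 times a count or within the Wilson interval of a share, and 13 moved. The intervals of the cassette and GCATG shares are wide, so that staying within them says little about stability. With clusters of at least 17 counts, 53 of 84 clusters were left. With clusters of at least 39 counts, 6 genes kept one, 12 clusters and 538 counts were left, and 15.4% of cassette and 1.09% of constitutive exons had an adjacent cluster. Within 150 nt those shares were 23.1% and 11.96%. With basic transcripts alone the cassette share was 75% of 4 exons, and without Sec31a, an alternative chosen after seeing the data, 22.2%. GCATG was in 7.69% of windows with 20 nt added, and TGCATG in 5.26% of the 19 main windows. CATGC, the reverse complement searched as a control motif, was in 3 of those 19 (15.8%), against 4 for GCATG. The site in both Sec24a windows reads GCATGC, which holds both motifs. CATGC is thus no independent background for GCATG here, and nothing is concluded from comparing them. CATGC is counted among the 30 although it is another motif. Within 300 nt, 1 cluster lay near Sec31a exon 23. The intronic share ranged from 61.9% to 75% and moved under none of its 6 alternatives. Fewer counts or shorter windows leave fewer clusters by construction. Leaving out a replicate was not possible because the list pools the libraries. No paired analysis was possible because the only column holds the pooled count and no result comes from a test. Sites under 10 counts are not in the list, so that a missing cluster does not show missing binding.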
